A study of Mus musculus with 3 samples.

Results

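The collagen genes of the mouse were examined for nearby binding of Tbx4 and Hoxc10 in the embryonic hindlimb bud. They were taken by name, as the protein-coding genes whose symbol has the form Col, number, a, number, and they came to 44 of the 21883 protein-coding genes of the RefSeq table for the mm10 build. Binding was measured by chromatin immunoprecipitation with sequencing (ChIP-seq) in hindlimb tissue of wild-type CD1 embryos at e11.5 (days of embryonic development). All samples shared that genotype, stage and fixation in 1% formaldehyde, and they differed in the antibody. One was a homemade antibody against Tbx4 and the other, from Abcam, was against Hoxc10. The remaining sample, made with a Santa Cruz antibody against Hoxc10, was not analysed here.

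Each antibody is represented by 1 deposited list of binding summits, the single base at which a peak is highest, with 4780 summits for Tbx4 and 1614 for Hoxc10. There are no replicates, the read depth is unknown, and no input or mock library was used here, so differences between the factors have no replicate check and no test between them was made. The score beside each summit is the authors' MACS2 value on a −log10 scale, where a higher value means a stronger peak, and it is compared below only within 1 list. The X chromosome held 13 Tbx4 and 3 Hoxc10 summits, or 0.272% and 0.186% of the lists. Whole limb buds hold mesenchyme, ectoderm, vessels, nerves and blood, and a summit does not show in which of these cells a gene was bound. Of 5 hindlimb mesenchyme genes (Tbx4, Pitx1, Isl1, Hoxc10 and Prrx1), 4 had a Tbx4 and 4 a Hoxc10 summit in their domain. For Tbx4 the counts were 1 of 5 for ectoderm markers, 1 of 4 for endothelial, 1 of 4 for blood, 1 of 3 for muscle precursor and 2 of 5 for housekeeping genes. For Hoxc10 they were 0 of 5, 0 of 4, 1 of 4, 1 of 3 and 0 of 5. All protein-coding genes had 17.2% with Tbx4 and 6.83% with Hoxc10. The median domain was 249.6 kb for the mesenchyme genes and 87.2, 333.0, 45.4, 84.8 and 63.6 kb for the other groups in that order. The mesenchyme genes include Tbx4 and Hoxc10 themselves, and the part of domain length in these counts was not tested.

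Collagens are extracellular proteins whose chains are wound around each other into a helix. Fibrillar collagens form the banded fibrils that give bone, skin and tendon their strength, and those of cartilage are built on type II with types IX and XI. Type IV forms the network of basement membranes under epithelia and around vessels, while other types coat fibrils, anchor membranes or span the cell surface. In the limb bud, mesenchyme condenses and lays down a cartilage matrix before bone forms. Tbx4 is a T-box factor and Hoxc10 a homeodomain factor of the posterior Hox group, both active in the hindlimb.

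A summit was counted for a gene when it lay in the gene's domain, which is the gene itself and the space on each side up to the next protein-coding gene, at most 1 Mb. The limit of 1 Mb was never reached, since the longest extension was 882.7 kb, next to Col12a1. No summit was counted for more than 1 collagen gene. A summit between a collagen gene and its neighbour belongs to the domains of both, so a count gives position and does not say which gene the summit acts on.

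Promoter windows are shown where the summits bear on them. The RefSeq promoter table (build GRCm38.p6, the same as mm10) held 38 windows for 35 of the 44 genes, each from 250 bases before to 50 bases after a start. It had none for Col1a1, Col2a1, Col5a2, Col4a3, Col9a3, Col12a1, Col14a1, Col22a1 and Col26a1. Over all 32851 windows of the table there were 246 of the 4780 Tbx4 and 34 of the 1614 Hoxc10 summits. In the collagen windows there was 1 of the 34 Tbx4 summits at collagens, at Col11a2, and 0 of the 15 Hoxc10 summits. Shown are the 250 bases upstream of 3 starts, all on the plus strand, 5′ to 3′. Col11a2 (chr17:34038888-34039137) is the only bound window, Col9a1 (chr1:24194953-24195202, the downstream one of its 2 starts) lies nearest to the strongest summit at a cartilage collagen, and Col1a2 (chr6:4505368-4505617) belongs to the gene with the strongest summit of all. Capitals mark the T-box core AGGTGT and the posterior Hox core TTTATNG, searched on both strands (the latter reads CNATAAA on the opposite strand).
Col11a2: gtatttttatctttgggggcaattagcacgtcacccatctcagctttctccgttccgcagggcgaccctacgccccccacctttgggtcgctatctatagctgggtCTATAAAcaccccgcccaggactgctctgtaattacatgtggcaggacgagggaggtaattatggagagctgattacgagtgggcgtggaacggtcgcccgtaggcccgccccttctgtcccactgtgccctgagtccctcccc
Col9a1: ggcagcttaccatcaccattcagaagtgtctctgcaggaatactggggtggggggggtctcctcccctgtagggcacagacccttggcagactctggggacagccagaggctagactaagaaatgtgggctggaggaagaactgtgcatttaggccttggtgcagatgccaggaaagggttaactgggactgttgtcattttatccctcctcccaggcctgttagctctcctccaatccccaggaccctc
Col1a2: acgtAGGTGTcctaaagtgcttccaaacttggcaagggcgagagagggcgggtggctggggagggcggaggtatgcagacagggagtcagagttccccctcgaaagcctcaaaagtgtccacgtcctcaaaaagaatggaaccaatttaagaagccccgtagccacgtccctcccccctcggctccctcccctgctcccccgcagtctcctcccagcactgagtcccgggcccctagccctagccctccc

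In Col11a2 the Tbx4 summit lay at base -181 from the start, and the marked Hox core stood at bases -144 to -138, on the minus strand. Those letters hold TATAAA, the TATA box sequence. The T-box core of Col1a2 stood at bases -246 to -241, in a window without a summit, and the Col9a1 stretch held neither core. Over the 38 collagen windows of 300 bases, 3 held AGGTGT (Col1a2, Col24a1 and Col6a4) and 6 held TTTATNG (Col4a6, Col6a4, Col8a1, Col11a2, Col13a1 and Col17a1). The shares over all 32851 windows were 13.7% and 10.9%. A match is a description of letters and not of a binding site.

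Tbx4 summits lay in the domains of 18 collagen genes, 40.9% of the 44 (95% Wilson interval 27.7 to 55.6%), and Hoxc10 summits in those of 10, or 22.7% (12.8 to 37.0%). Among all protein-coding genes 17.2% had a Tbx4 and 6.83% a Hoxc10 summit. Sites of both factors were found at 9 collagen genes, against 5% of all genes. At 19 collagen genes there was a summit of either factor (19% of all genes), and at 25 of neither. Of the 10 genes with Hoxc10, 9 also had Tbx4, and the exception was Col24a1. Among all genes with a Hoxc10 summit 73.2% also had Tbx4. The intervals treat genes as independent, although several collagens are direct neighbours.

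Collagen genes are long, and their domains had a median of 198.3 kb against 67.3 kb for all genes, and in all genes long domains more often held a summit. When all genes were divided into 4 groups of equal size by domain length, 25 of the 44 collagens fell in the group with the longest domains, above 168.1 kb. There 15 of 25 had Tbx4 (60%, interval 40.7 to 76.6%) and 10 of 25 had Hoxc10 (40%, 23.4 to 59.3%). All genes of that group had 39.9% and 21.9%, with a longer median domain than the collagens (364.8 against 313.2 kb). In the group of domains between 67.3 and 168.1 kb, 2 of 12 collagens had Tbx4, near the 14.4% of all genes, and 0 of 12 had Hoxc10 (3.58%). In the groups of shorter domains, 0 of 2 and 1 of 5 had Tbx4 (6.8% and 7.7% of all genes), the latter being Col11a2, and none had Hoxc10 (0.548% and 1.28%). Per length, the 12.2 Mb of collagen domains held 34 Tbx4 summits, 2.79 per Mb, and 15 Hoxc10 summits, 1.23 per Mb. The domains of all genes together held 1.80 and 0.604 per Mb. Whether the collagens differ from other long genes was not tested.

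**Figure D1:**
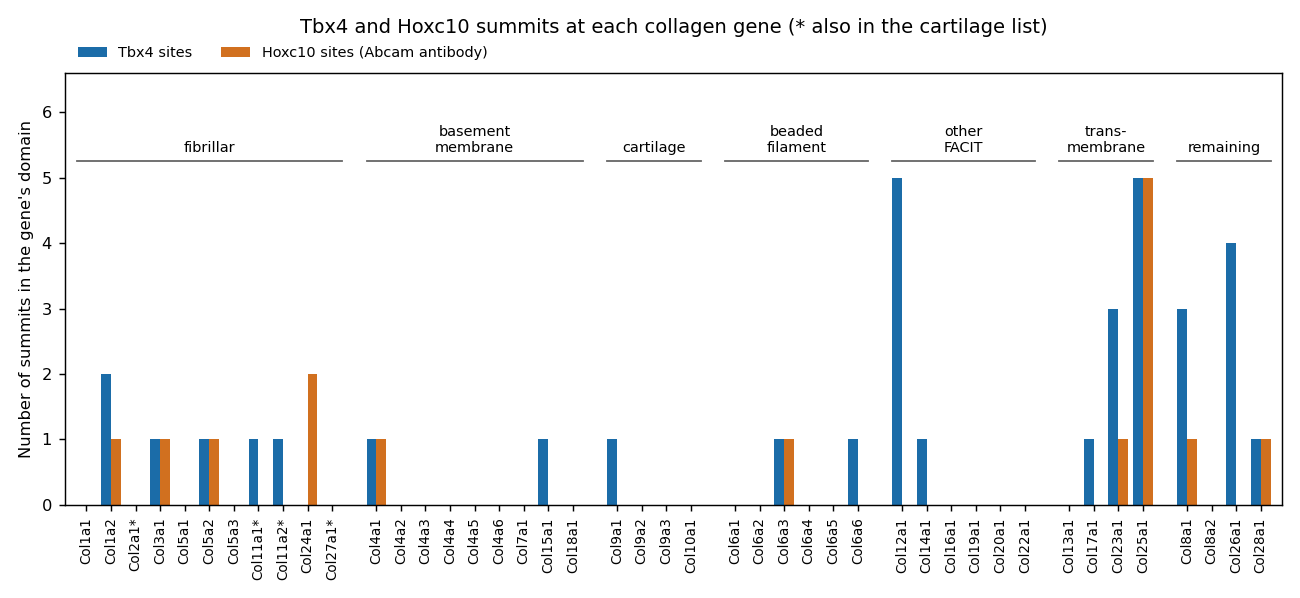
Number of Tbx4 (blue) and Hoxc10 (orange) summits in the domain of each of the 44 collagen genes, grouped by class, with an asterisk on fibrillar genes that are also in the cartilage list. Counts run from 0 to 5, with the highest at Col12a1 and Col25a1, and 25 genes have no bar.

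The fibrillar class held the strongest Tbx4 summit of all collagens. Of its 11 genes 5 had Tbx4 (Col1a2, Col3a1, Col5a2, Col11a1 and Col11a2) and 4 had Hoxc10 (Col1a2, Col3a1, Col5a2 and Col24a1). These are 45.5% (interval 21.3 to 72.0%) and 36.4% (15.2 to 64.6%), against 17.2% and 6.83% of all genes. The class has a median domain of 313.2 kb, with a range from 53.98 to 1274 kb. All genes of the group with the longest domains had 39.9% and 21.9%, below these shares and inside both intervals. Not all 11 genes fall in that group, and the part of domain length was not tested. Col1a2, the second chain of type I collagen, had 2 Tbx4 summits and 1 Hoxc10 summit. The stronger Tbx4 summit, at position 4557331 of chromosome 6 with a score of 135.4, ranked 5 of 4780. It lay 15788 bp beyond the 3′ end of the gene, with Casd1, the next gene, 43580 bp farther on. The Hoxc10 summit stood 13 bp away at 4557344, with a score of 31.58 and rank 66 of 1614. The other Tbx4 summit was weak, 2.94, and lay 16039 bp upstream of the start. Both factors thus had a high-ranking summit at the same place downstream of Col1a2, and none inside the gene.

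Col3a1 and Col5a2, which encode chains of types III and V and stand side by side on chromosome 1, each had 1 summit of each factor. Inside Col5a2 was a Tbx4 summit of 11.3 at 45460957. Its Hoxc10 summit of 7.72 lay 172757 bp outside, on the side of Wdr75. Those of Col3a1 were far upstream, Tbx4 (5.3) at 461959 bp and Hoxc10 (4.43) at 268003 bp, and both were nearer to Gulp1. In neither gene did the factors meet within 200 bp, the distance at which summits were called shared.

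Col24a1, a minor fibrillar chain, was the only collagen with Hoxc10 and no Tbx4. Its Hoxc10 summits were 61542 bp upstream of the gene (10.67) and inside it (7.72), and the nearest Tbx4 summit to the gene was 398.5 kb away. The type XI genes had Tbx4 alone. At Col11a1 a summit of 12.42 lay 331181 bp upstream of the gene and 69149 bp from Rnpc3. At Col11a2 it was the promoter summit shown above, with the low score of 2.26 and 554 bp from Rxrb. It counts as inside the gene, by 38 bp, because the gene in the table begins before the start used for the promoter window. The 5 remaining fibrillar genes had no summit of either factor.

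Col1a1, the partner chain of Col1a2, was among them. The nearest Tbx4 summit to Col1a1 lay 53.9 kb away, 0.081 kb from Ppp1r9b, with a score of 2.26, and the nearest Hoxc10 summit 1316 kb away. At Col2a1, the main collagen of cartilage, the nearest summits were 529.4 kb (Tbx4, inside Kansl2) and 1102 kb (Hoxc10) from the gene. Nor did Col5a1 (346.1 kb to the nearest Tbx4 summit), Col5a3 (258.4 kb) or Col27a1 (68.5 kb) have one in their domain. A domain ends at the next gene, so an element inside or beyond a neighbour is not counted.

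The cartilage list has 8 genes, Col2a1, Col9a1, Col9a2, Col9a3, Col10a1, Col11a1, Col11a2 and Col27a1, of which 4 are also fibrillar. Of them 3 had Tbx4, at 37.5% (interval 13.7 to 69.4%), and 0 had Hoxc10 (0 to 32.4%). All genes had 17.2% and 6.83%, and 0 of 8 is near the latter share. The median domain of the class was 61.2 kb, with a range from 7.105 to 1274 kb. All genes with domains between 29.9 and 67.3 kb had 7.7% with Tbx4 and 1.28% with Hoxc10. The part of domain length in the counts of this class was not tested. Col9a1, a chain of the type IX collagen on the surface of cartilage fibrils, had the second-highest Tbx4 score of any collagen, 50.96, at 24196293 of chromosome 1 and rank 36 of 4780. This summit lay inside the gene, 1090 bp after the start of its downstream promoter. The nearest Hoxc10 summit was 1928 kb from the gene. The other chains of type IX, Col9a2 and Col9a3, and Col10a1, which marks hypertrophic cartilage, had none in domains of 41.9, 26.4 and 7.105 kb. The last of these is only the gene itself, since Col10a1 lies within Nt5dc1. Among the 4 cartilage genes that are not fibrillar, Col9a1 was thus the only one with a summit.

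Basement membrane collagens had 2 Tbx4 summits and 1 Hoxc10 summit, all of them outside the genes. Of 9 genes, 2 had Tbx4 (22.2%, interval 6.32 to 54.7%) and 1 had Hoxc10 (11.1%, 1.99 to 43.5%), both near the 17.2% and 6.83% of all genes. The median domain was 208.6 kb, with a range from 36.5 to 311.2 kb. All genes of the group with the longest domains had 39.9% and 21.9%, above these shares and inside both intervals. The part of domain length was not tested here either. Col4a1, which with Col4a2 forms the common network of type IV, had a Tbx4 summit of 3.67 and a Hoxc10 summit of 12.24, at 189159 and 99120 bp downstream of the gene. The Tbx4 summit was 335 bp from Irs2. At Col15a1, a collagen beneath basement membranes, the Tbx4 summit (2.94) was 39302 bp downstream and 753 bp from Tgfbr1. Both Tbx4 summits of the class were thus within 1 kb of another gene. Col4a2, Col4a3, Col4a4, Col4a5, Col4a6, Col7a1 (anchoring fibrils of skin) and Col18a1 had no summit. Col4a5 and Col4a6 are on the X chromosome, where few summits were listed at all, and the nearest Tbx4 summit was 15737 and 15428 kb from them. The 7 other genes hold both counts, 2 of 7 and 1 of 7.

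The intervals of the 3 main classes overlapped for each factor, and the differences between classes were not tested. Per length of domain, Tbx4 had 1.5 summits per Mb in the fibrillar, 1.67 in the cartilage and 1.15 in the basement membrane class. These are all below the 1.80 per Mb of all genes. For Hoxc10 the values were 1.25, 0 and 0.573 per Mb, against 0.604. Col11a1, in both the fibrillar and the cartilage class, has a domain of 1274 kb with 1 Tbx4 summit. With Col11a1 counted, the Tbx4 density of the 3 main classes was below that of all genes. The density of all collagens, 2.79 per Mb, was above that of all genes. Densities without Col11a1 were not computed, so the place of these 2 classes may depend on that gene. For Hoxc10 the fibrillar class was above all genes.

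**Figure D2:**
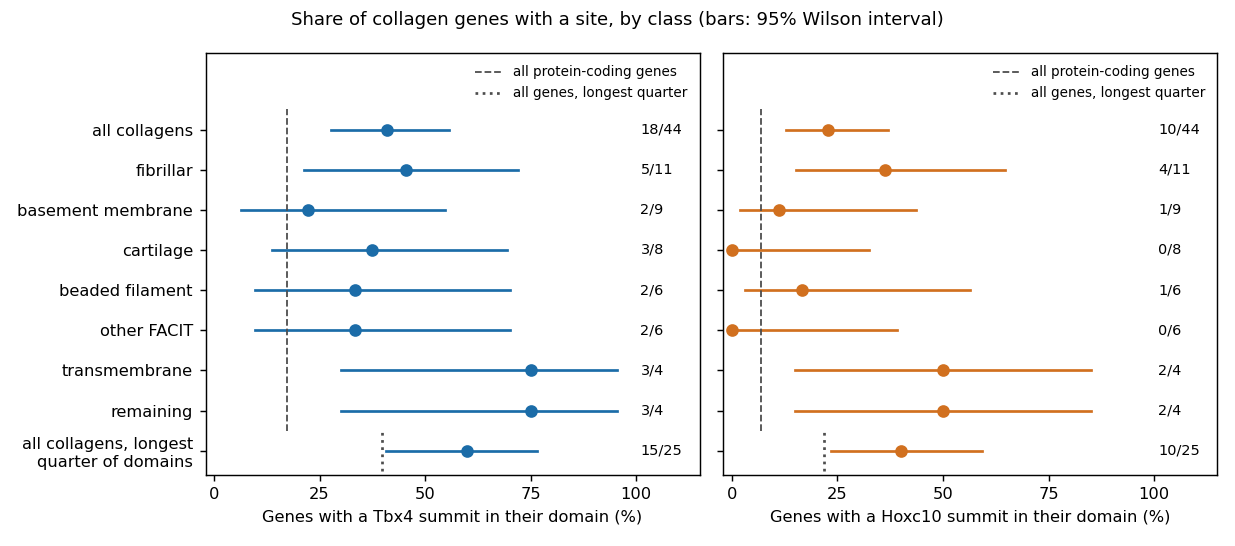
Share of genes with a Tbx4 (left) or Hoxc10 (right) summit in each collagen class, with 95% Wilson intervals, the counts at the right and the share of all protein-coding genes as a dashed line (17.2% and 6.83%). The bottom row sets the 25 collagens with the longest domains beside all genes of that length group (dotted, 39.9% and 21.9%), and the intervals of all classes overlap.

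The 4 transmembrane collagens held 9 Tbx4 and 6 Hoxc10 summits in 1.27 Mb, or 7.10 and 4.73 per Mb. Col25a1, a membrane collagen known from neurons and motor innervation, had 5 of each. At least 5 Tbx4 summits were found at 1.16% of all genes and at least 5 Hoxc10 summits at 0.256%. The domain of Col25a1 spans 555.8 kb, against a median of 67.3 kb for all genes. All 5 Hoxc10 summits were inside Col25a1, with scores of 7.72, 14.69, 3.26, 13.86 and 1.4 in order along the gene. Of its Tbx4 summits 3 were inside (2.26, 4.46 and 2.26) and the other two upstream, at 52218 bp (2.26) and 18576 bp (7.14). The best Tbx4 score here, 7.14, ranked 1049 of 4780, so the many summits were of moderate or low score. One pair came close, a Tbx4 summit at 130401122 of chromosome 3 and the strongest Hoxc10 summit at 130401445, 323 bp apart and thus not shared. Without Col25a1 the class had 5.62 Tbx4 and 1.40 Hoxc10 summits per Mb, so that its Hoxc10 density rested on that gene. Both values are then below those of Col8a1, Col8a2, Col26a1 and Col28a1 together (5.77 and 1.44 per Mb). All collagens without Col25a1 had 2.49 and 0.859 per Mb.

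Col23a1, another membrane collagen, had 3 Tbx4 summits inside (9.15, 8.12 and 2.94) and 1 Hoxc10 summit inside (3.83), 35756 bp from the nearest of them. Col17a1, of the hemidesmosomes that fix epidermis to its basement membrane, had 1 weak Tbx4 summit inside (1.63, rank 4494). Col13a1 had none.

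**Figure D3:**
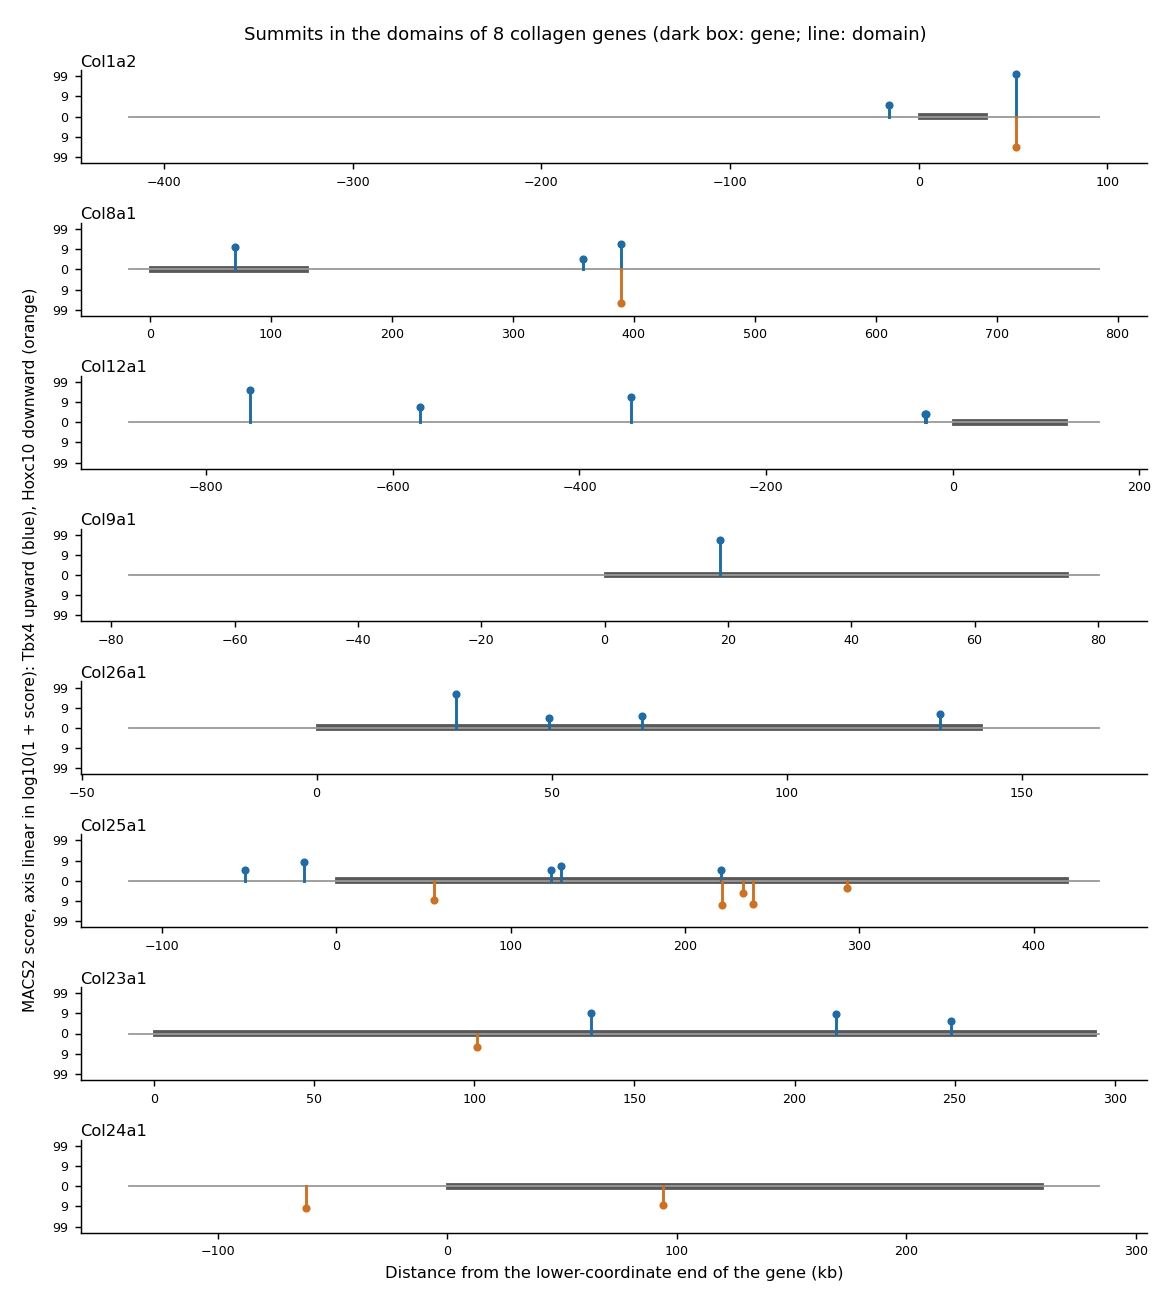
Summits in the domains of 8 collagen genes, by distance in kb from the lower-coordinate end of the gene (each panel has its own scale), with Tbx4 scores drawn upward and Hoxc10 scores downward on an axis linear in log10(1 + score). At Col1a2 and Col8a1 the factors share a summit outside the gene, while at Col25a1 (closest pair 323 bp apart, 2 Tbx4 summits outside the gene) and Col23a1 no summits are shared.

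The short-chain collagen Col8a1, of vessel walls and the cornea, held the strongest Hoxc10 summit of all collagens. It was at 58013758 of chromosome 16, with a score of 46.64 and rank 20 of 1614. A Tbx4 summit of 17.15 (rank 301) was 48 bp away. The Hoxc10 summit lay 259021 bp upstream of Col8a1 and 394777 bp from Dcbld2, the next gene. Col8a1 had 2 further Tbx4 summits, inside the gene (11.3) and 227121 bp upstream (2.26). Its partner chain Col8a2 had none.

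Col1a2 and Col8a1 were the only collagens with a shared site, 2 of 44, where 2.66% of all genes had one. Of the 34 Tbx4 summits at collagens 2 were shared, 5.88% (interval 1.63 to 19.1%), against 10.9% of the list. Of the 15 Hoxc10 summits 13.3% were shared (3.74 to 37.9%), against 32.1%. At the remaining collagen genes with both factors, the summits were over 200 bp apart.

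Col26a1, with a domain of 206.3 kb, had 4 Tbx4 summits, all inside the gene, and no Hoxc10. At least 4 Tbx4 summits were found at 1.76% of all genes, and at 3 collagens. The highest, at 136771375 of chromosome 5, scored 44.83 (rank 50) and the others 2.26, 2.94 and 3.67. Col28a1, a collagen of peripheral nerve, had a Tbx4 summit of 2.94 at 27533 bp downstream and a Hoxc10 summit of 9.16 inside the gene.

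Among the collagens that coat fibrils, Col12a1 stood out in number. This collagen of tendon and other dense connective tissue had 5 Tbx4 summits and no Hoxc10, and its domain of 1039 kb was the longest of the collagens after that of Col11a1. The strongest, 38.86 and rank 60, was 753516 bp from the gene and 129211 bp from Cd109, which is the nearer gene. A second (4.46) at 570535 bp was also nearer to Cd109. A summit of 15.93 was 345313 bp from Col12a1, which is its nearest gene, and a pair of 1.63 each stood at 29384 and 28790 bp. Col14a1 had a single summit of 2.26, 42017 bp away and 6354 bp from Deptor. Col16a1, Col19a1, Col20a1 and Col22a1 had none, although the domain of Col22a1 spans 773.4 kb.

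Of the 6 type VI collagens, which form beaded filaments around cells, 2 had Tbx4 (33.3%, interval 9.68 to 70.0%, against 17.2% of all genes) and 1 had Hoxc10 (16.7%, 3.01 to 56.4%, against 6.83%). Col6a3 had a Tbx4 summit of 2.94 at 53168 bp upstream, nearer to Mlph, and a Hoxc10 summit of 8.23 at 22669 bp downstream. Inside Col6a6 was a Tbx4 summit of 4.46. There was none at Col6a1, Col6a2, Col6a4 and Col6a5.

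The scores of collagen summits had medians close to those of the whole lists. The median Tbx4 score was 3.67, the same as over all 4780, and 18 of 34 summits were at or above it. The median Hoxc10 score was 8.23 against 7.72, with 11 of 15 at or above the median of the list. Strictly above the medians, without ties, were 16 of 34 Tbx4 and 8 of 15 Hoxc10 summits. In the whole lists these were 2336 of 4780 and 792 of 1614. In the top 10% of their list were 6 Tbx4 summits, at Col1a2, Col9a1, Col26a1, Col12a1 (2) and Col8a1, and 2 Hoxc10 summits, at Col8a1 and Col1a2. The Tbx4 summit of Col11a1 (rank 479) was the first outside. The strong Tbx4 summits were thus spread over 5 genes of 4 classes.

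**Figure D4:**
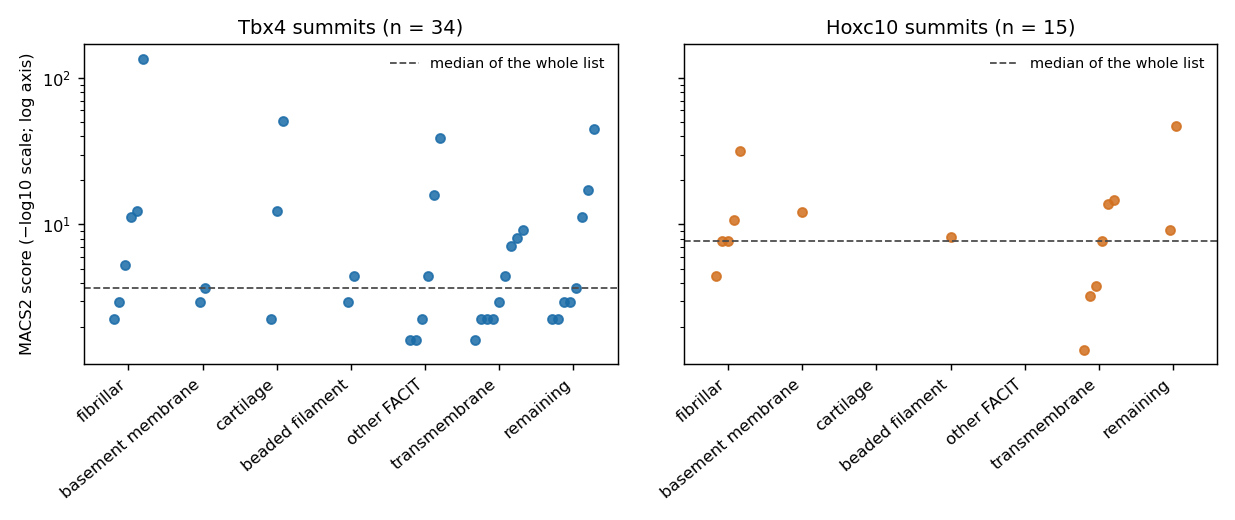
MACS2 score (log axis) of each of the 34 Tbx4 and 15 Hoxc10 summits at collagen genes by class, with the median of each whole list dashed (3.67 and 7.72). Genes in 2 classes are drawn in both, and the highest points are Col1a2 at 135.4 for Tbx4 and Col8a1 at 46.64 for Hoxc10.

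Most summits at collagens were away from the ends of the collagen genes. Of the Tbx4 summits 16 of 34 were inside the collagen gene (47.1%, interval 31.5 to 63.3%), and 46.5% of the Tbx4 list was inside some protein-coding gene. For Hoxc10 they were 8 of 15 (53.3%, 30.1 to 75.2%) against 38.9%. A Tbx4 summit was inside 9 of the 44 genes, against 7.37% of all genes, and a Hoxc10 summit inside 4, against 2.18%. Collagen genes had a median length of 114.4 kb and all genes 17.2 kb. Only the Tbx4 summit of Col11a2 was within 1 kb of an end of its collagen gene, so 1 of 44 collagens had one there, against 3.29% of all genes, and 0 had Hoxc10 there, against 0.407%. Of 18 Tbx4 summits outside, 8 were nearer to another protein-coding gene, and of 7 Hoxc10 summits 3.

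Genes that make, process or bind collagen showed summits of their own. Of 29 genes for collagen synthesis and processing 8 had Tbx4 and 3 Hoxc10. Most were at the prolyl hydroxylase P3h2 (3 Tbx4 and 2 Hoxc10, best Tbx4 score 34.51, 1 shared) and the lysyl oxidase Loxl4 (2 and 1). The procollagen protease Bmp1 and Pcolce2 followed (2 and 0 each). Of 10 receptors 3 had Tbx4 and 1 Hoxc10, with 3 and 2 at the integrin Itga1, 2 and 0 at Itga11 and 1 and 0 at Ddr1. Of 15 fibril partners 6 had Tbx4 and 4 Hoxc10. There were 3 and 2 at decorin (Dcn, 1 shared), 2 and 2 at Thbs2 and 1 and 2 at fibronectin (Fn1). Fmod and Prelp, both on chromosome 1, had 1 Tbx4 summit each with the same score of 50.96, the highest of the fibril partners. Whether 1 summit was counted for both genes was not checked.

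Cartilage matrix partners had Tbx4 at 4 of 12 and Hoxc10 at 2, with 3 and 1 at Matn1 and 1 and 1 at Prg4, the lubricin gene. Matn2 and Matn4 had 1 and 0 each, with Tbx4 scores of 2.94 and 7.14. Aggrecan (Acan), the main proteoglycan of cartilage, had none. Of 16 basement membrane partners 7 had Tbx4 and 3 Hoxc10. There were 1 and 3 at the laminin Lama2 (1 shared) and 2 and 0 at perlecan (Hspg2). Lama4 and Lamb1 had 1 and 1 each, with Tbx4 scores of 3.67 and 15.93. The shares of these 5 lists with Tbx4 ran from 27.6 to 43.8%, against 17.2% of all genes. Those with Hoxc10 ran from 10 to 26.7%, against 6.83%. With Hoxc10 the lowest were 1 of 10 receptors and 3 of 29 processing genes (10.3%), both near the share of all genes. That receptor was Itga1, with a domain of 1170 kb. The median domains of the 5 lists were 97.2, 160.0, 109.1, 51.8 and 164.1 kb in the order given. The part of domain length in these shares was not tested.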

How the data were processed

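ChIP-seq of e11.5 hindlimb gave 3 labelled samples in 3 groups of 1, of which 2 lists were used. Per the submitters' processing notes, Bowtie2 2.2.6, MACS2 2.1.1.20160309 and HOMER were used on mm10. The deposited files hold 1 bp summits, and the authors' score is a MACS2 value on a −log10 scale. Not given in the sources used here is whether it comes from a p-value or q-value, which control was used or how summits were chosen. Running peak numbers reach 45103 (Tbx4) and 4026 (Hoxc10), of which the lists hold 10.6% and 40.1%. The name of the Hoxc10 list may mean that only summits within 200 bp of Santa Cruz peaks were kept.

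Domains were computed from the protein-coding genes of the RefSeq table for GRCm38.p6, strands and starts from its promoter windows. Summits within 200 bp were called shared. Coordinates are 1-based. Counting was tested on simulated sites with Python 3.11.15 and pandas 2.3.3. Every collagen was named. Described in full were genes with a shared site and the 5 with most sites of each factor (ties by score). So was the best-scoring gene of each main class. Of each pathway list up to 3 genes with the most sites were named, with genes tied with the last of these and a few others. The members, lists and classes were chosen with earlier results of these data known. Alternatives were other domains, score limits and sharing distances. No set test was made.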

Additional observations from a re-analysis of the deposited data

How the results depend on the processing

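Each count was recomputed under other settings, 65 values in all, of which 36 stayed within 1.5 times the main count and 29 moved further. Among the 36 were values that could not rise or move, as for cartilage genes with Hoxc10. Others were those for the basement membrane list without its genes on X, a setting added after seeing the data. Split by direction, 45 of the 65 were lower and 1 was higher (3 genes with a shared site within 500 bp, with Col25a1). With the gene body alone, 9 collagens had Tbx4 and 4 Hoxc10 (16 and 8 summits, 0 shared genes), with 2 and 1 fibrillar and 0 and 0 basement membrane genes; all genes then had 7.37% and 2.18%. With extensions of at most 100 kb, 15 collagens had Tbx4, 7 had Hoxc10 and 1 had a shared site (14.4%, 4.74% and 1.58% of all genes). There 3 fibrillar genes had Tbx4 and 2 Hoxc10, and 1 basement membrane gene had Tbx4. With 1 kb added to each gene, 16 collagens had Tbx4 and 10 had Hoxc10 (17% and 6.75% of all genes). There 0 basement membrane genes had Tbx4, since both of their summits lie within 1 kb of a neighbour. Given to the nearest gene within 100 kb, Tbx4 was at 12 collagens and Hoxc10 at 6 (11.9% and 4.04% of all genes). There 1 collagen had a shared site (1.4% of all genes). Tbx4 and Hoxc10 were at 3 and 2 fibrillar and 0 and 0 basement membrane genes. The higher-scoring 50% of each list held 2336 and 792 sites (ties at the median left out). With these, 11 collagens had Tbx4 and 7 had Hoxc10 (9.95% and 3.94% of all genes), with 16 and 8 summits. There 2 fibrillar genes had Hoxc10 and 0 basement membrane genes Tbx4. With the 1505 highest Tbx4 sites, 9 collagens had Tbx4 (7.06%), with 12 summits, 3 fibrillar and 0 basement membrane genes. No paired analysis was possible because each group has 1 sample. Read depth is unknown, so that a missing summit may be below detection.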
